A study of Homo sapiens with 18 samples.

Results

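The p53 metabolism, redox and mitophagy genes described here are 8 known targets of the transcription factor p53, SESN1, SESN2, TIGAR, FDXR, TP53I3, TP53INP1, SPATA18 and ACER2, chosen by name for their roles in energy metabolism, redox balance, mitochondrial upkeep and sphingolipid turnover. The choice was made with earlier results of these data known, so it was not independent of them. All 8 genes were among the 3074 genes of the deposited table and passed the filter on low values. They were read in 18 bulk libraries of poly(A) RNA, 3 in each of 6 groups, made from SJSA-1 cells, an established human line grown from an osteosarcoma that carries extra copies of MDM2. NCS and MD-224 cells and NCS and MI-1061 cells received neocarzinostatin (NCS, a drug that cuts DNA) at 1 µg/mL for 72 h, of which the first 48 h came before the compound, and MD-224 or MI-1061 at 1 µM for the last 24 h. NCS cells had NCS with vehicle in place of the compound, MD-224 and MI-1061 cells had the compound without NCS, and DMSO cells had vehicle alone. MI-1061 is an inhibitor that occupies the p53-binding pocket of MDM2, and MD-224 is a degrader in which an MDM2 ligand of that kind is joined to a ligand of the ubiquitin ligase component cereblon. Every group is thus a state of 1 tumour line with amplified MDM2, and the labels do not say whether replicates came from separate cultures, so the p-values measure only the spread between these libraries, which may be technical.

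MDM2 binds p53, blocks its activity as a transcription factor and marks it for degradation, and DNA damage or an MDM2 inhibitor releases p53 to switch on its targets. Most of those targets are known for arrest or death of the cell, but p53 also acts on metabolism. The sestrins restrain the growth kinase complex mTORC1, TIGAR slows glycolysis, FDXR and TP53I3 are oxidoreductases, TP53INP1 and SPATA18 take part in autophagy and in the clearing of damaged mitochondria, and ACER2 breaks down ceramide.

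Promoter sequence is shown for 3 of the genes. SESN1 is one side of the sestrin pair, MDM2 was the gene most like FDXR across libraries, and TP53I3 had the response that depended most on NCS. The sequences are the 250 bases before an annotated start from RefSeq (GRCh38.p14), on the minus strand of chr6:109008989-109009238, chr17:74872995-74873244 and chr2:24084835-24085084, and the capitals mark the p53 decamer, of which a full p53 response element holds a pair.
SESN1: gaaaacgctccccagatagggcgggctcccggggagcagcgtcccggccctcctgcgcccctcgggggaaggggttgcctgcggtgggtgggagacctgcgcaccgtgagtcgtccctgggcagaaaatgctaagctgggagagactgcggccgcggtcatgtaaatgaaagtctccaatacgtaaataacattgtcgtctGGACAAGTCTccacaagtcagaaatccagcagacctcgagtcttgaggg
FDXR: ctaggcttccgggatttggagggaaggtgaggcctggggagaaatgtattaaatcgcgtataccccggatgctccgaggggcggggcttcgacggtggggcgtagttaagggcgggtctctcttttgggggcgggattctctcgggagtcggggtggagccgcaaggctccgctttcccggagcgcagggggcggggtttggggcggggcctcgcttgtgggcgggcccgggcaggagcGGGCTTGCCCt
TP53I3: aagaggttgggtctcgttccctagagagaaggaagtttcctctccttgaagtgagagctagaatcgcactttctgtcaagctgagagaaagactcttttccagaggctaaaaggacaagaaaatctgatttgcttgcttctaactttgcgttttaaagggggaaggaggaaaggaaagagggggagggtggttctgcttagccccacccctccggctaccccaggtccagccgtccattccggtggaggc
The decamer was searched by its published consensus, which reads the same on both strands, in windows from 250 bases before to 50 bases after each start. It was found in 2 of the 10 windows that matched 7 of the 8 genes, at 49 bases before 1 of the SESN1 starts (its first base) and 11 bases before 1 of the FDXR starts, and in 6.63% of the 35116 windows of all genes. A match is a description of these letters only. For SESN1 and FDXR, which have more than 1 start, the sequence shown is from the window that held the decamer. The other windows of SESN1 and FDXR held none, nor did the windows of SESN2, TIGAR, TP53I3, SPATA18 and ACER2. TP53INP1 had no window to search. The 3 sequences shown thus include both of the genes that had a match.

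The listed genes amounted to between 4490870 and 21816350 reads per library, and the genes described here had from 50 reads (ACER2, DMSO replicate 3) to 70442 reads (TP53I3) in a library. The table is a selection: every gene in it had a mean at least 1.75 times higher in NCS and MI-1061 cells than in DMSO cells, so that contrast is not tested here and the counts of genes called are shares of listed genes only. The selection can also favour low DMSO values and high NCS and MI-1061 values in every other comparison that uses either group. This bears on their folds and p-values as well as their counts, by an amount that was not tested. In bulk RNA, a change in every cell and a change in the share of cells that express a gene cannot be told apart. Of 8 bone and osteosarcoma markers, COL1A2 and SPARC were listed, 3 of 6 blood-cell markers were listed (ITGAM, CD68 and LAPTM5), and none of the 4 epithelial and 2 endothelial markers was. The blood-cell markers moved with the treatments: over DMSO, NCS raised 3 of 3, MI-1061 raised 2 of 3 (ITGAM 17.7-fold and LAPTM5 20.5-fold) and MD-224 raised 1 of 3, against 2, 2 and 0 higher under TMM scaling, where CD68 was lower with MI-1061 (log2 -0.81). Their summed level was 3418 to 4506 normalized counts in NCS and MD-224 cells, 4852 to 4962 in NCS and MI-1061 cells, 2302 to 2498 in NCS cells, 783 to 1085 in MD-224 cells, 2412 to 3052 in MI-1061 cells and 440 to 1111 in DMSO cells, and none was at 0 in any library. COL1A2 and SPARC were both raised by NCS and by MD-224 over DMSO, and SPARC alone by MI-1061, against COL1A2 by NCS alone under TMM scaling, where COL1A2 was lower with MI-1061 (log2 -1.59). The part of these markers in the results was not tested. Values are normalized counts, that is, reads divided by a size factor for each library, and differences are on the scale of log2(value + 1). Over all tested genes the median log2 difference moved by between -0.99 and 0.66 when TMM scaling, which sets the typical listed gene to no change, replaced the deposited scaling. The TMM factors were computed from the listed genes, which were selected to be higher in NCS and MI-1061 cells than in DMSO cells. A gene lower or reversed under TMM scaling, here and below, is thus lower relative to the typical listed gene. It need not have fallen in the cells.

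All 8 genes had their group means in the same order, with DMSO cells lowest, then NCS cells, MD-224 cells, NCS and MD-224 cells, MI-1061 cells, and NCS and MI-1061 cells highest. For every listed gene, the selection of the table already puts DMSO cells below NCS and MI-1061 cells. The share of all tested genes with this full order was not counted. ACER2 was the only gene of the 8 whose libraries did not overlap between any neighbours in that order. In 6 of the 8 genes the NCS and MD-224 libraries overlapped the MD-224 libraries, so that 2 were apart, against 48.5% of all tested genes that were apart and higher. NCS and MD-224 libraries also overlapped MI-1061 libraries for TP53I3, TP53INP1 and SPATA18. For SESN2, NCS libraries overlapped DMSO libraries, and NCS and MI-1061 libraries overlapped MI-1061 libraries.

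**Figure D1:**
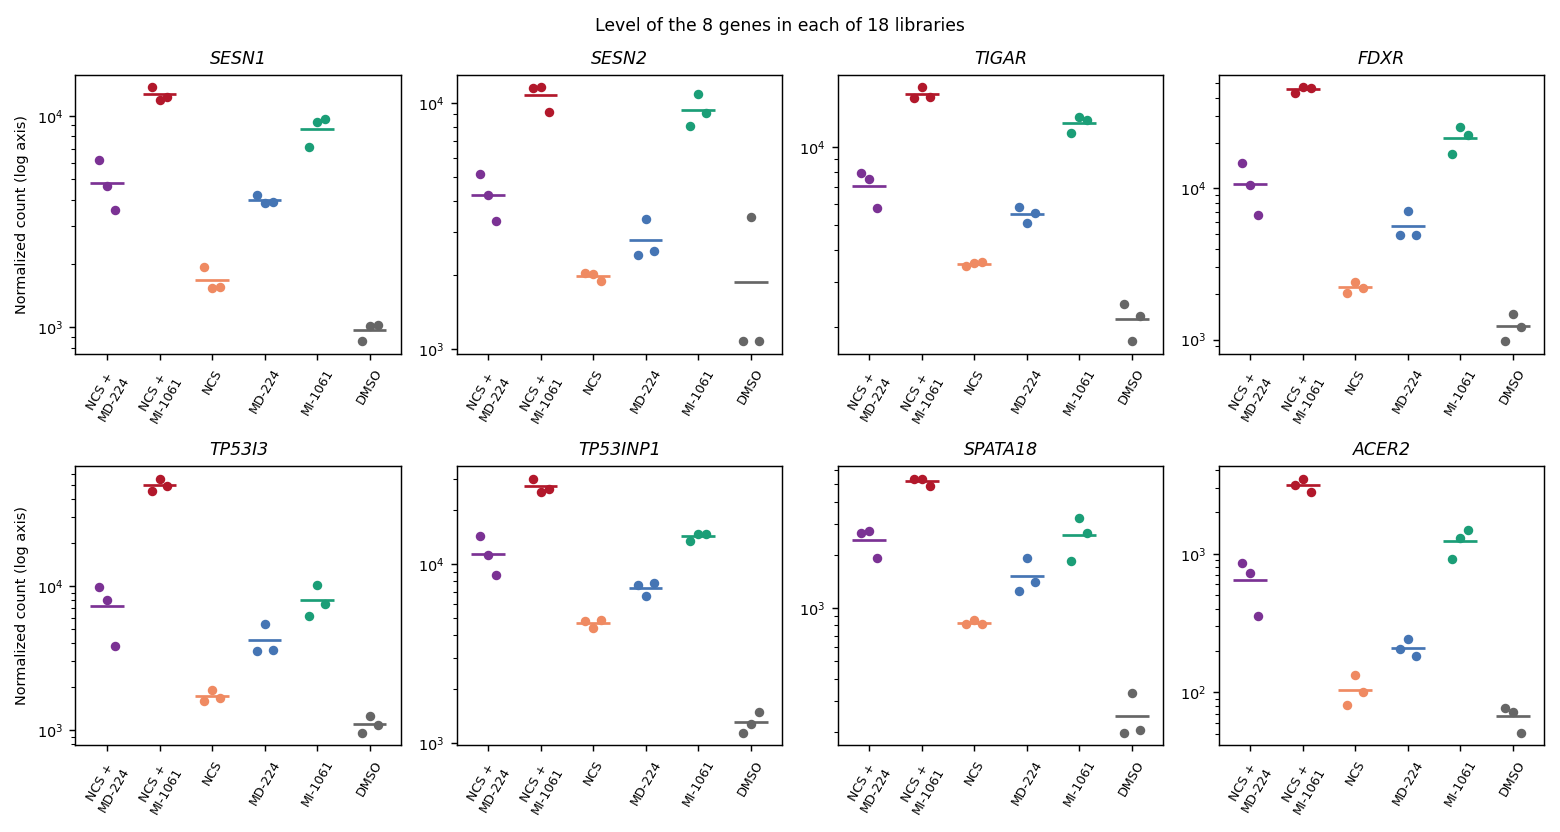
Normalized count (log axis) of each of the 8 genes in each of 18 libraries, by group; points are libraries and bars are means of 3. NCS and MI-1061 libraries are the highest in every panel except SESN2, where they overlap the MI-1061 libraries, and the DMSO library at 3447 in the SESN2 panel stands apart from the other two.

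MI-1061 raised all 8 genes over DMSO (limma, adjusted p under 0.05 over all 3073 tested genes), where 67.6% of all tested genes were called higher. Their median fold was 9.69, beside 1.99 for all tested genes, and single genes lay between 5.86-fold (SESN2) and 18.1-fold (ACER2). MD-224 raised 7 of 8, where 39.9% of all tested genes were called higher, with a median of 3.95-fold beside 1.39-fold. In cells that already had NCS, the inhibitor raised all 8 over NCS alone (70.5% of all tested genes were called), by a median of 6.91-fold beside 1.96-fold. The degrader also raised all 8 over NCS alone, where 15.1% of all tested genes were called, by a median of 2.87-fold beside 1.23-fold. With TMM scaling the inhibitor was called for 8 genes without NCS and 8 with it, and the degrader for 7 without NCS and 7 with it. Here and below, the shares of all tested genes called are for the deposited scaling. No such share is given for TMM scaling, so counts under it stand without a background. The comparisons share their DMSO or their NCS libraries, so they are not independent of each other.

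NCS alone raised 6 of 8 genes over DMSO, where 54% of all tested genes were called higher, and its median of 1.69-fold stood beside 1.58-fold for all tested genes. TP53INP1 (3.61-fold) and SPATA18 (3.47-fold) were well above that median, while the others lay between 1.25-fold and 1.83-fold. Under TMM scaling only TP53INP1 and SPATA18 were called, at log2 differences of 1.24 and 1.18 (adjusted p = 1.02e-05 and 0.000486), and SESN2 turned to -0.29. MDM2, itself a p53 target, differed by 0.45 on the log2 scale (adjusted p = 0.031) under NCS, and CDKN1A, the p53 target that encodes the cell cycle inhibitor p21, by 2.45 (3.36e-08). With MI-1061 the log2 differences from DMSO were 3.53 for MDM2 and 4.91 for CDKN1A, and with MD-224 they were 1.60 and 2.94.

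**Figure D2:**
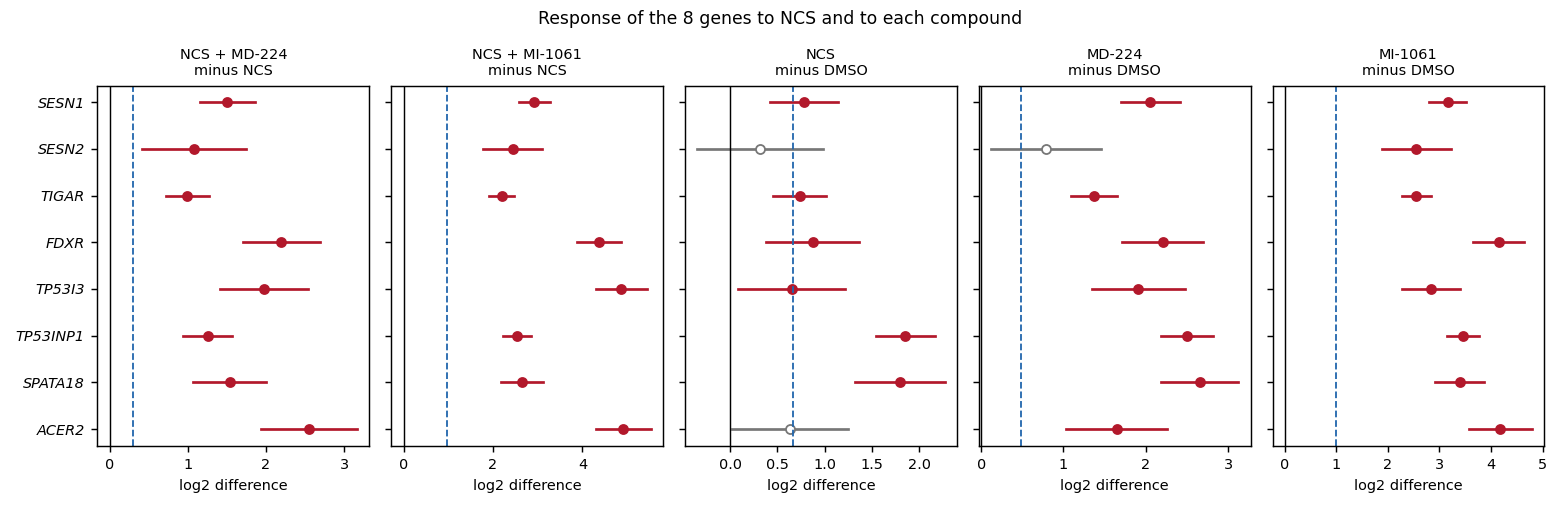
Log2 difference of each gene (rows) in 5 comparisons (columns), with 95% confidence intervals from limma over 18 libraries. Filled red points passed an adjusted p of 0.05, open grey points did not, and the dashed line is the median of all 3073 tested genes; with MI-1061 every gene lies to the right of it, and with NCS alone TP53INP1 and SPATA18 stand farthest right.

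SESN1 and SESN2 encode sestrins, stress proteins that hold back mTORC1 through the GATOR complexes and AMPK. SESN1 had 6192, 4680.4 and 3585 normalized counts in NCS and MD-224 cells and 13646, 11886 and 12313 in NCS and MI-1061 cells, against 1919, 1526 and 1549.5 in NCS cells. Without NCS, SESN1 had 4244, 3859.6 and 3925 in MD-224 cells and 7104, 9384 and 9611 in MI-1061 cells, against 858, 1017 and 1023 in DMSO cells. Both compounds lifted every library above its vehicle libraries, and the inhibitor did so by more. SESN1 rose 8.95-fold with MI-1061 and 4.16-fold with MD-224 over DMSO (95% intervals 6.99 to 11.5 and 3.25 to 5.32), and 1.72-fold with NCS (adjusted p = 0.00108).

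SESN2, which also senses leucine, had 5159, 4238 and 3309 normalized counts in NCS and MD-224 cells and 11491, 11615 and 9233 in NCS and MI-1061 cells, against 2032, 2015 and 1887 in NCS cells. In cells without NCS, SESN2 had 2403, 3382.5 and 2509.6 in MD-224 cells and 8050.4, 10868 and 9128 in MI-1061 cells, against 1071, 3447 and 1073 in DMSO cells. One DMSO library, replicate 2, had 3.21 times the mean of the other two, and lay above all NCS libraries and all MD-224 libraries. SESN2 rose 5.86-fold with MI-1061 over DMSO. Its difference with MD-224, log2 0.79 (95% interval 0.12 to 1.45), did not pass (adjusted p = 0.0535), but did in the fit with the replicate number as a block (0.0182), and its difference with NCS was log2 0.32 (adjusted p = 0.395). Without DMSO replicate 2 the values were 3.11 with MI-1061, 1.35 with MD-224 (adjusted p = 4.39e-05) and 0.88 with NCS (0.00112).

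The same DMSO library was high in genes of the integrated stress response, a programme run by the factor ATF4 that is known to switch on SESN2. All 6 listed genes of that programme were highest there, as were 34.8% of all tested genes. These 6 stood at between 1.38 times (PSAT1) and 5.64 times (CHAC1) the mean of the other 2 DMSO libraries. Their summed level was 28213 there, against 14979 and 12813 in replicates 1 and 3. GDF15, a stress-induced secreted factor that is also counted below among p53 targets, was at 5.19 times the mean of the other 2. MDM2 was highest there too, at 163950 against 114680 and 126600 in replicates 1 and 3. The summed level of 31 p53 targets of other functions was 299800, against 231110 and 234420. CDKN1A, at 12142, lay between replicates 1 and 3 (13252 and 10129). Of all 3073 tested genes, 55 had a ratio at least as large as that of SESN2. The part of these genes in the SESN2 result was not tested.

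Over NCS alone, SESN2 rose 5.42-fold with MI-1061 and 2.11-fold with MD-224 (adjusted p = 2.62e-06 and 0.0293). The second of these did not pass under TMM scaling (log2 0.75, adjusted p = 0.264), nor without any 1 of NCS replicates 1, 2 and 3 or NCS and MD-224 replicates 1 and 2 (adjusted p from 0.0655 to 0.152). SESN1 rose 7.60-fold and 2.84-fold in the same comparisons.

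TIGAR encodes a phosphatase that lowers an activator of glycolysis and so steers sugar towards the pentose phosphate pathway and NADPH. TIGAR had 7941, 7506 and 5794 normalized counts in NCS and MD-224 cells and 15530, 17166 and 15708 in NCS and MI-1061 cells, against 3449.9, 3541 and 3583 in NCS cells. With no NCS given, TIGAR had 5847, 5066 and 5578 in MD-224 cells and 11380, 13111 and 12839 in MI-1061 cells, against 2459, 1755 and 2201 in DMSO cells. Within each group its libraries were close together, the widest being NCS and MD-224 cells and DMSO cells, and both compound groups lay above their vehicle group. TIGAR rose 5.86-fold with MI-1061 and 2.59-fold with MD-224 over DMSO, and 4.57-fold and 1.99-fold over NCS. Its NCS difference was 1.66-fold (adjusted p = 0.000252), which did not pass under TMM scaling (log2 0.12, adjusted p = 0.476). In GENCODE 29, 42.6% of the TIGAR exon bases also belong to another gene on the same strand, and how reads there were assigned is not given in the sources used here, so its level is uncertain.

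FDXR encodes ferredoxin reductase, the mitochondrial enzyme that passes electrons to ferredoxins for iron-sulfur cluster assembly and steroid synthesis. FDXR had 14640, 10610 and 6663 normalized counts in NCS and MD-224 cells and 42969, 46789 and 46434 in NCS and MI-1061 cells, against 2027, 2418 and 2191 in NCS cells. Cells that had no NCS showed 4941, 7109 and 4887 with MD-224 and 16865, 25556 and 22562 with MI-1061, against 972, 1482 and 1211 with DMSO. The inhibitor libraries lay above all degrader libraries with and without NCS. FDXR rose 17.7-fold with MI-1061 and 4.61-fold with MD-224 over DMSO (95% intervals 12.6 to 24.9 and 3.28 to 6.48), 20.5-fold and 4.58-fold over NCS, and 1.83-fold with NCS alone (adjusted p = 0.00509, but 0.392 under TMM scaling).

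TP53I3, also called PIG3, encodes a quinone oxidoreductase-like enzyme linked to reactive oxygen species. TP53I3 had 9913, 8031 and 3848 normalized counts in NCS and MD-224 cells and 45912, 55706 and 49614 in NCS and MI-1061 cells, against 1593.5, 1894 and 1666.5 in NCS cells. Where NCS was left out, TP53I3 had 3522, 5496 and 3574 in MD-224 cells and 6197, 10204 and 7556 in MI-1061 cells, against 961, 1249 and 1084.5 in DMSO cells. The 3 NCS and MI-1061 libraries lay far above every other library, and the NCS and MD-224 libraries overlapped those of each compound alone. TP53I3 rose 29.3-fold with MI-1061 over NCS (95% interval 19.8 to 43.4), against 7.15-fold over DMSO (4.84 to 10.6). With MD-224 it rose 3.93-fold over NCS and 3.76-fold over DMSO. The NCS difference, 1.57-fold, passed narrowly (adjusted p = 0.0487), and did not pass without any 1 of NCS replicates 1, 2 and 3 or DMSO replicates 1 and 3 (adjusted p from 0.0702 to 0.131), by edgeR (0.0506) or under TMM scaling (0.931).

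TP53INP1 encodes a stress protein that binds autophagy factors and restrains proliferation. TP53INP1 had 14296, 11216 and 8687 normalized counts in NCS and MD-224 cells and 30044, 25412 and 26121 in NCS and MI-1061 cells, against 4809.8, 4414 and 4856.5 in NCS cells. Cells without NCS had 7618.5, 6668 and 7827 with MD-224 and 13416, 14684 and 14685 with MI-1061, against 1145, 1279 and 1499.8 with DMSO. NCS alone took TP53INP1 well above DMSO in all 3 libraries. It rose 10.9-fold with MI-1061 and 5.65-fold with MD-224 over DMSO, but 5.78-fold and 2.38-fold over NCS.

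SPATA18, also called MIEAP, encodes a protein of mitochondrial quality control. SPATA18 had 2652, 2729.9 and 1912 normalized counts in NCS and MD-224 cells and 5397, 5348 and 4894 in NCS and MI-1061 cells, against 812, 859.9 and 814 in NCS cells. The counts without NCS were 1256, 1925 and 1399 in MD-224 cells and 1839, 3229.5 and 2653 in MI-1061 cells, against 198, 331 and 206 in DMSO cells. As for TP53INP1, all 3 NCS libraries lay well above the DMSO libraries, and MI-1061 libraries overlapped NCS and MD-224 libraries. SPATA18 rose 10.5-fold with MI-1061 and 6.29-fold with MD-224 over DMSO, and 6.28-fold and 2.90-fold over NCS.

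ACER2 encodes the Golgi alkaline ceramidase, which splits ceramide into sphingosine and a fatty acid. ACER2 had 862, 728 and 353 normalized counts in NCS and MD-224 cells and 3134, 3488 and 2783 in NCS and MI-1061 cells, against 80.5, 133 and 101 in NCS cells. For cells without NCS the values were 204, 242 and 183 with MD-224 and 923.5, 1299 and 1491 with MI-1061, against 77.7, 72.1 and 51.2 with DMSO. Groups that were neighbours in level did not overlap. It rose 18.1-fold with MI-1061 and 3.13-fold with MD-224 over DMSO, and 30.1-fold and 5.85-fold over NCS. By size of log2 difference that put ACER2 at rank 19 of 3073 genes with MI-1061 over NCS and at rank 10 with MD-224 over NCS. The NCS difference, log2 0.63 (95% interval 0.02 to 1.25), did not pass (adjusted p = 0.0747), although it did without NCS replicate 1 (0.0496).

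Whether the response to a compound depended on NCS was tested as the difference between the response with NCS and the response without it. For MI-1061, TP53I3 was called higher (23.5% of all tested genes were) and TP53INP1 lower (20.8%). TP53I3 responded 4.10-fold more to the inhibitor in NCS cells than in cells without NCS (log2 2.03, SE 0.38, adjusted p = 0.000404), and the log2 value stayed between 1.87 and 2.23 when libraries were left out. TP53INP1 responded less with NCS (log2 -0.92, SE 0.21, adjusted p = 0.00195). For SPATA18 the difference was log2 -0.74 (adjusted p = 0.0655), and it passed under TMM scaling (0.0494) and without MI-1061 replicate 1 or DMSO replicate 2 (adjusted p = 0.016 and 0.0127). SESN2 was at log2 -0.11 (adjusted p = 0.861), but at -0.67 without DMSO replicate 2 (0.0374). The other 4 genes had 95% intervals that reached both sides of 0, from -0.75 to 0.03 for TIGAR to -0.14 to 1.60 for ACER2.

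For MD-224, none of the 8 genes was called higher and 2 were called lower with NCS than without, TP53INP1 (log2 -1.25, SE 0.21, adjusted p = 0.00188) and SPATA18 (log2 -1.12, SE 0.32, adjusted p = 0.0324), where 4.07% and 7.19% of all tested genes were called higher and lower. The TP53INP1 call was lost without replicate 3 of every group (log2 -1.10, adjusted p = 0.119). The SPATA18 call was lost without any 1 of 8 libraries, namely NCS replicates 1, 2 and 3, MD-224 replicates 2 and 3, NCS and MD-224 replicate 3, and DMSO replicates 1 and 3 (adjusted p from 0.0526 to 0.081). It was also lost without replicate 1 or replicate 3 of every group (log2 -1.20 and -0.91, adjusted p = 0.0722 and 0.398). TP53I3 was at log2 0.07 (95% interval -0.73 to 0.86). ACER2 was at log2 0.90 (adjusted p = 0.179) and at 1.29 without NCS and MD-224 replicate 3 (0.0338), and SESN1 was at -0.55 (0.156) and at -0.75 without NCS and MD-224 replicate 1 (0.0458). CDKN1A also had a negative difference with both compounds, log2 -1.45 with MI-1061 and -0.70 with MD-224 (adjusted p = 6.98e-05 and 0.0484), while MDM2 was at 0.22 and 0.58 (0.476 and 0.128).

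**Figure D3:**
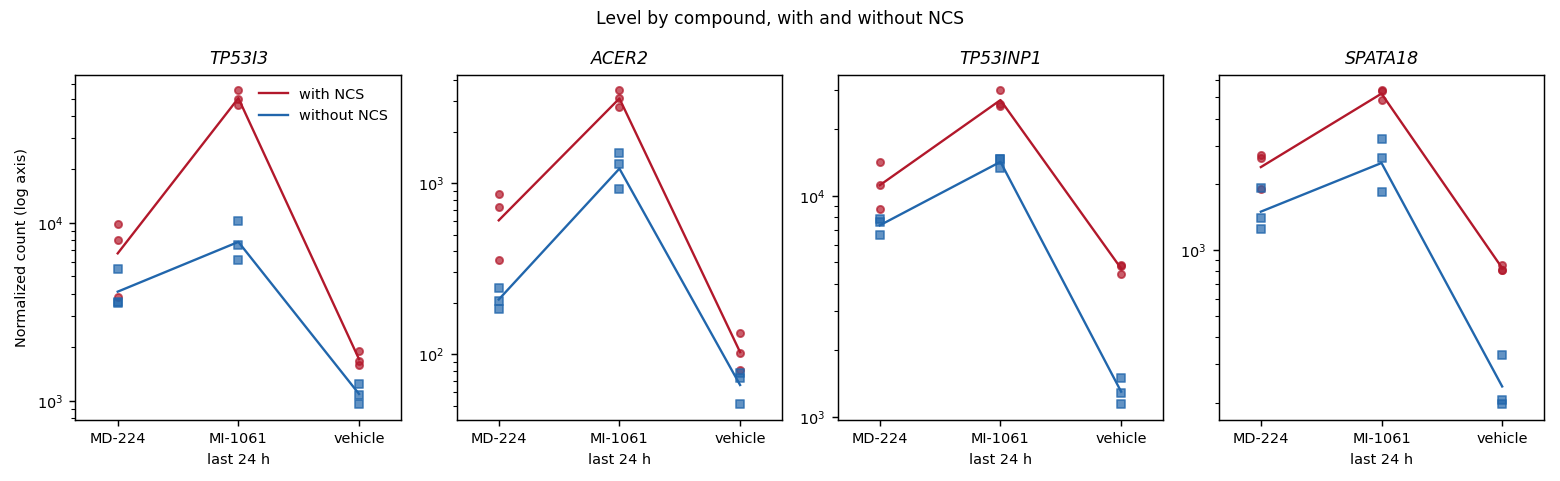
Normalized count (log axis) of 4 of the genes by compound, in cells with NCS (red circles) and without (blue squares); points are libraries and lines join the means on the log scale. For TP53I3 the lines are farthest apart at MI-1061, and for TP53INP1 and SPATA18 they are farthest apart at vehicle.

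NCS added to a compound was also compared with the compound alone. NCS and MI-1061 cells had 7 genes higher than MI-1061 cells, where 55.9% of all tested genes were called higher, by a median of 1.99-fold beside 1.63-fold. TP53I3 stood out at 6.43-fold (95% interval 4.34 to 9.51), while the rest lay between 1.16-fold (SESN2, adjusted p = 0.571) and 2.57-fold (ACER2). Under TMM scaling TP53I3 and ACER2 were called (log2 2.07 and 0.75), and SESN1, SESN2 and TIGAR turned negative. The SESN1 call was lost without MI-1061 replicate 1 (adjusted p = 0.0555), and the TIGAR call without that library or NCS and MI-1061 replicate 2 (0.0726 and 0.0693).

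NCS and MD-224 cells had 6 genes higher than MD-224 cells, where 39% of all tested genes were called, by a median of 1.56-fold beside 1.36-fold. ACER2 was highest, at 2.89-fold (adjusted p = 0.000642), and was the one gene called under TMM scaling (log2 1.09, adjusted p = 0.00904). TP53INP1 (1.52-fold) and ACER2 were called without each single library in turn, but the TP53INP1 call was lost without replicate 2 of every group (log2 0.53, adjusted p = 0.0631). For the other 4 genes called, FDXR, TIGAR, TP53I3 and SPATA18, leaving out 1 library could end the call. FDXR was lost without NCS and MD-224 replicate 1 (adjusted p = 0.0573). TIGAR was lost without NCS and MD-224 replicate 1 or 2 or MD-224 replicate 2 or 3 (0.0802 to 0.181), and TP53I3 and SPATA18 without NCS and MD-224 replicate 1 or 2 or MD-224 replicate 1 or 3 (0.129 to 0.237 and 0.0755 to 0.0928). In a fit of these 2 groups alone TIGAR and TP53I3 were not called (0.0944 and 0.118) and SESN2 was (0.0412). SESN1, at 1.17-fold (adjusted p = 0.287), was called without NCS and MD-224 replicate 3 (0.0493).

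The degrader and the inhibitor, given at the same dose for the same time, were compared with and without NCS, 2 pairs in all. MD-224 cells had all 8 genes lower than MI-1061 cells, where 49.8% of all tested genes were called lower, and the median MD-224 level was 0.453 times the MI-1061 level, beside 0.671 for all tested genes. The lowest was ACER2, at 0.172 times (log2 -2.54, SE 0.29, adjusted p = 1.42e-06), followed by FDXR at 0.260 and SESN2 at 0.295. SPATA18 at 0.599 and TP53I3 at 0.525 were nearest to the inhibitor, and the SPATA18 libraries of MD-224 and MI-1061 cells overlapped. The SPATA18 call was lost without MI-1061 replicate 2 (adjusted p = 0.0534). It was also lost without replicate 3 of every group (log2 -0.65, adjusted p = 0.123). With TMM scaling 6 of 8 were called, the exceptions being TP53I3 and SPATA18 (adjusted p = 0.145 and 0.337).

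With NCS given to both, NCS and MD-224 cells again had all 8 genes lower than NCS and MI-1061 cells, where 54.7% of all tested genes were called lower, at a median of 0.381 times the level beside 0.629. TP53I3 was now the lowest, at 0.134 times (log2 -2.90, SE 0.27, adjusted p = 3.36e-07), with ACER2 at 0.194 and FDXR at 0.223. Under TMM scaling 6 were called, and SESN2 and SPATA18 were not (adjusted p = 0.101 and 0.114). The gap between the compounds widened with NCS for TP53I3 alone among the 8 (log2 -1.97, SE 0.38, adjusted p = 0.000706), where 24.8% of all tested genes were called lower and 14.2% higher. Without NCS and MD-224 replicate 1 the TP53INP1 gap passed too (log2 -0.50, adjusted p = 0.0435, against -0.33 and 0.23 with every library).

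**Figure D4:**
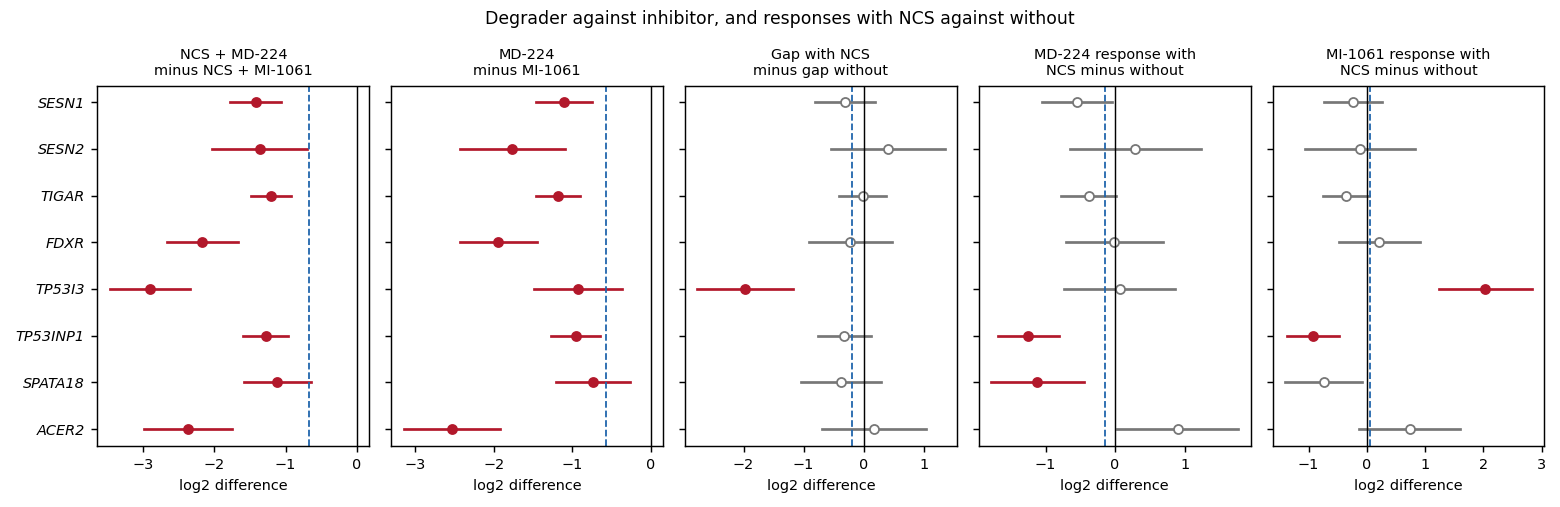
Log2 difference of each gene (rows) between the compounds with and without NCS (2 columns on the left), for the change in that gap, and for the change in each response with NCS (2 columns on the right), with 95% intervals from limma. Filled red points passed an adjusted p of 0.05 and the dashed line is the median of all 3073 tested genes; TP53I3 stands alone in the third column at -1.97 and in the fifth at 2.03.

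Some libraries stood apart for all 8 genes together. NCS and MD-224 replicate 3 was the lowest of its 3 libraries for 8 of 8 genes, against 42.3% of all tested genes, and it had the lowest MDM2 of its group, at 697740 against 961730 and 838980 in replicates 1 and 2. MI-1061 replicate 1 was the lowest of its group for 8 of 8, against 48.5% of all tested genes, with MDM2 at 1189800 against 1828100 and 1698800. CDKN1A did not follow MDM2 in either group. In MI-1061 cells it was highest in replicate 1, at 365100 against 349870 and 349060 in replicates 2 and 3. In NCS and MD-224 cells it was lowest in replicate 2, at 251900 against 412510 and 271550 in replicates 1 and 3. The part of these libraries in the results was not tested beyond leaving each out.

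Ratios of 2 genes within a library do not depend on the scaling between libraries, and 2 were tested with an exact permutation test, two-sided, for 3 effects each. The SESN1 to SESN2 ratio on the log2 scale averaged 0.17 ± 0.08 in NCS and MD-224 cells and 0.23 ± 0.19 in NCS and MI-1061 cells, against -0.26 ± 0.16 in NCS cells (SD, n = 3 each). In cells without NCS it averaged 0.55 ± 0.33 with MD-224 and -0.11 ± 0.16 with MI-1061, against -0.72 ± 0.91 with DMSO (SD, n = 3 each). With NCS, every library of either compound lay above every NCS library, and the lowest DMSO library was the one with high SESN2.

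MD-224 raised the SESN1 to SESN2 ratio by 0.85 (exact p = 0.005, the smallest that 400 arrangements can give, and 0.03 adjusted over the 6 tests), and by 0.59 without DMSO replicate 2 (exact p = 0.01, unadjusted). The MI-1061 difference was 0.55 (exact p = 0.025, adjusted 0.075), and 0.29 without DMSO replicate 2 (exact p = 0.05, unadjusted). The NCS difference was 0.14 (exact p = 0.607). The TP53INP1 to SPATA18 ratio differed by -0.22 under MD-224, -0.03 under MI-1061 and -0.05 under NCS (exact p = 0.27, 0.855 and 0.735), and its group means lay between 2.22 and 2.51.

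**Figure D5:**
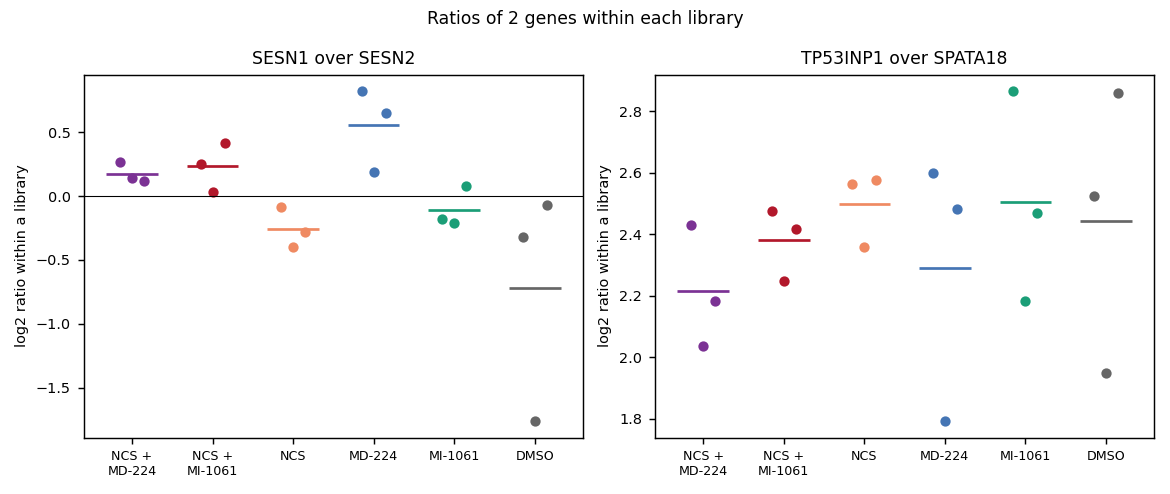
Log2 ratio of SESN1 to SESN2 (left) and of TP53INP1 to SPATA18 (right) within each library, by group; points are libraries and bars are means of 3. On the left both compounds lie above their vehicle with NCS, and the DMSO library at -1.76 is replicate 2; on the right the groups overlap.

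Between pairs of the 8 genes, Pearson correlations of log2 values over the 18 libraries ran from 0.86 (SESN2 and TP53INP1) to 0.99 (FDXR and ACER2). The libraries share 6 treatments, so these are descriptions. Among listed genes with a mean of at least 50, those most like each member over the 18 libraries were SULF2 and EDA2R for SESN1, PLEKHF1 and UNC5B for SESN2, TOB1 and RRM2B for TIGAR, and MDM2 and RRM2B for FDXR. CMBL and APOBEC3C were most like TP53I3, PHLDA3 and CDKN1A most like TP53INP1, HES2 and UNC5B-AS1 most like SPATA18, and KANK3 and IER5 most like ACER2. These correlations lay between 0.97 and 0.99. The response to MI-1061 was also larger with NCS for CMBL (log2 1.16) and APOBEC3C (log2 1.05), as for TP53I3, which the choice by likeness makes a description.

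Other genes of the same pathways were taken from lists, and only those in the table could be measured. Of 28 further p53 targets of metabolism, redox and autophagy, 15 were listed, and MI-1061 raised 15 of 15 over DMSO, MD-224 10 and NCS 8, where 67.6%, 39.9% and 54% of all tested genes were called higher. Their median log2 differences were 1.38, 0.85 and 0.53, which under TMM scaling became 0.39, 0.36 and -0.08, with 6, 5 and 1 called higher and 1, 0 and 4 called lower. ABCA12, a lipid transporter, rose 40.6-fold with MI-1061 and RRM2B, a ribonucleotide reductase subunit, 7.24-fold. The smallest rises were those of ALDH4A1 (1.43-fold) and GAMT (1.42-fold), enzymes of proline and creatine metabolism, and both turned negative under TMM scaling (log2 -0.48 and -0.49, adjusted p = 0.0244 and 0.0505). Over NCS alone, MI-1061 raised 15 of these genes and MD-224 9, where 70.5% and 15.1% of all tested genes were called, and 14 and 4 under TMM scaling.

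Of 37 genes of AMPK, mTORC1 and GATOR, through which sestrins act, 4 were listed. The AMPK subunits PRKAB1 and PRKAB2 rose 2.30-fold and 1.86-fold with MI-1061 over DMSO, and 4.42-fold and 3.68-fold over NCS. The Rag GTPase RRAGC rose 2.40-fold with MI-1061 over DMSO, and the mTORC1 scaffold LAMTOR2 was at 1.26-fold (adjusted p = 0.0924). Under TMM scaling RRAGC was the one of these called higher with MI-1061 over DMSO (log2 0.27), LAMTOR2 was lower (log2 -0.66), and PRKAB2 was at -0.10 (adjusted p = 0.541). Over NCS with the same scaling, PRKAB1 and PRKAB2 were higher (log2 1.15 and 0.89) and RRAGC and LAMTOR2 lower (log2 -0.43 and -0.55).

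Beside TIGAR, 3 of 31 genes of glycolysis and the pentose phosphate pathway were listed, PFKFB2, PFKFB3 and PFKFB4, which make the sugar phosphate that TIGAR breaks down. All 3 rose with MI-1061 over DMSO, by 1.42-fold, 2.17-fold and 2.00-fold, but under TMM scaling none was called higher and PFKFB2 was lower (log2 -0.49). MD-224 raised PFKFB4 alone, 1.76-fold over DMSO (adjusted p = 0.291 under TMM scaling). Beside FDXR, 3 of 25 genes of iron-sulfur assembly and ferredoxin partners were listed. The assembly scaffold ISCU rose 2.72-fold with MI-1061 and 1.79-fold with MD-224 over DMSO, and 3.63-fold and 1.77-fold over NCS, and under TMM scaling 3 of these 4 calls held, with MD-224 over DMSO at log2 0.35 (adjusted p = 0.0523). The transferrin receptor TFRC rose 2.27-fold with MI-1061 and fell to 0.737 times the DMSO level with MD-224, and under TMM scaling the first of these was not called (log2 0.19, adjusted p = 0.239) and the second was (log2 -0.93). CYP11A1, a steroid-making enzyme fed by ferredoxin, rose 4.88-fold with MI-1061 (log2 1.32 under TMM scaling) and was at 1.04-fold with MD-224 (adjusted p = 0.911).

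Of 50 autophagy and mitophagy genes, 16 were listed, and NCS raised 14 of them over DMSO, MD-224 14 and MI-1061 9, where 54%, 39.9% and 67.6% of all tested genes were called higher. Their median log2 differences were 0.83, 0.64 and 0.51. Under TMM scaling these counts were 6, 3 and 4 higher and 3, 1 and 10 lower, and the MI-1061 median turned to -0.48. The cargo receptor SQSTM1 and the autophagosome protein MAP1LC3B rose 3.93-fold and 3.91-fold with MI-1061. WIPI1, which acts in forming autophagosomes, was at 0.836-fold and the lysosomal regulator TFEB at 0.926-fold (adjusted p = 0.0746 and 0.691), and both were lower under TMM scaling (log2 -1.25 and -1.09). With NCS alone WIPI1 and TFEB rose 2.18-fold and 2.28-fold, of which TFEB was not called under TMM scaling (adjusted p = 0.0819).

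Of 35 genes of ceramide and sphingosine metabolism, 10 were listed beside ACER2, and 2 rose under MD-224, 7 under MI-1061 and 7 under NCS, each against DMSO, where 39.9%, 67.6% and 54% of all tested genes were called higher. Their median log2 differences were 0.40, 0.92 and 1.02, which under TMM scaling became -0.09, -0.08 and 0.41, with 1, 2 and 3 called higher and 2, 3 and 2 called lower. The sphingosine-1-phosphate exporter SPNS2 rose 7.21-fold with MI-1061 and the sphingomyelinase SMPD3 3.05-fold, the second of which was not called under TMM scaling (adjusted p = 0.0775). The ceramide synthase CERS4 was at 0.700-fold and the receptor S1PR2 at 0.897-fold (adjusted p = 0.377 and 0.661), and both were lower under TMM scaling (log2 -1.50 and -1.14).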

How the data were processed

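The deposited values (unit: signal) are normalized counts, which by their column names and spacing the authors made by dividing the read counts of each library by its own size factor. GRCh38, HISAT2 (2.0.5.2), featureCounts (1.6.3) and DESeq2 (2.11.40.6) appear in the submitters' processing notes, which give no role or order here. In all 18 libraries every value was a whole multiple of one step (tolerance 0.01 reads), which gave back reads and size factors of 0.651 to 1.65. Taken over the listed genes together, replicates differed beyond counting error. That need not hold for each gene in each group, such as SPATA18 in NCS cells (SD 3.27% of the mean) or ACER2 in DMSO cells (50 to 75 reads). The inhibitor is written MI-1061 as in the titles, although the treatment protocol in the labels has its digits in another order.

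Genes with a value of at least 10 in at least 3 libraries were kept (3073, 1 left out), values were taken as log2(value + 1), and 6 groups were fitted in 1 limma model with a mean-variance trend (limma 3.58.1, R 4.3.3). P-values were adjusted by Benjamini-Hochberg over all tested genes in each of 12 comparisons, and an adjusted p under 0.05 was called. The ratios within a library were tested in Python 3.11.15 by exact permutation within strata. Alternatives were a pseudocount of 5, no filter, a mean of at least 50, TMM scaling, only the groups compared, a replicate block, left-out libraries, and edgeR 4.0.16 and DESeq2 1.42.0 on the recovered reads with the deposited size factors; the tests were tried on simulated data. Figures were drawn with matplotlib 3.10.9.

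Like-numbered libraries deviated together, with every correlation over 0.1, in 7 of the 9 comparisons of 2 groups. NCS against DMSO (lowest 0.063) and NCS and MI-1061 against MI-1061 (lowest 0.020) did not reach this, nor did the 3 differences of differences. Except where the replicate block is named, the limma p-values and intervals come from a fit without pairing. The block was run only as an alternative, also for the 7 comparisons that reached it.

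The members and gene lists were chosen with earlier results of these data known. All 8 members are named, with the 2 listed genes most like each, MDM2 and CDKN1A, and, of each gene list, all listed genes up to 6, otherwise the 2 with the largest and the 2 with the smallest difference with MI-1061 against DMSO. Genes that a result turned on are named beside it.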

Additional observations from a re-analysis of the deposited data

Results flagged for a closer look

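The responses of 3 of the genes to a compound differed between cells with NCS and cells without it, by the limma test of the difference itself. For MI-1061, 1 gene was called higher and 1 lower, where 23.5% and 20.8% of all tested genes were. For MD-224, 0 were called higher and 2 lower, where 4.07% and 7.19% of all tested genes were. In the gap between the compounds 1 was called lower, where 24.8% of all tested genes were. TP53I3 responded more to MI-1061 with NCS than without (log2 2.03), and its gap between MD-224 and MI-1061 differed by -1.97 with NCS against without. TP53INP1 responded less with NCS than without, by log2 -0.92 for MI-1061 and -1.25 for MD-224, the second of which did not pass without replicate 3 of every group (log2 -1.10, adjusted p = 0.119). SPATA18 responded less to MD-224 with NCS than without, by log2 -1.12. That call was lost without any 1 of 8 libraries (adjusted p from 0.0526 to 0.081). Nor did it pass without replicate 1 or replicate 3 of every group (adjusted p = 0.0722 and 0.398).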

How the results depend on the processing

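Of 96 results for single genes (8 genes in 12 comparisons), all 96 kept their direction and their side of the threshold with a pseudocount of 5, with no filter and with a mean of at least 50. With the replicate block 93 did, and 3 more passed: SESN2 with MD-224 against DMSO (adjusted p = 0.0182), ACER2 with NCS against DMSO (0.0429) and SPATA18 in the interaction of NCS and MI-1061 (0.0156), which makes 2 genes lower there; the block changed no other call. Pairing was not shown for the last pair of these. Fitting only the groups compared changed 3 calls, all in NCS and MD-224 against MD-224, where TIGAR and TP53I3 no longer passed (adjusted p = 0.0944 and 0.118) and SESN2 did (0.0412). TMM scaling, which moves the median of all listed genes, left 2 genes called for NCS against DMSO, 2 for NCS and MI-1061 against MI-1061, 1 for NCS and MD-224 against MD-224 and 2 lower in the interaction of NCS and MI-1061.

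Reversed under TMM were SESN2 with NCS (-0.29), SESN1, SESN2 and TIGAR in NCS and MI-1061 against MI-1061 (-0.069, -0.41 and -0.24), SESN1 and TIGAR in NCS and MD-224 against MD-224 (-0.22 and -0.094), FDXR in the interaction with MD-224 (0.16) and TIGAR in the gap between the compounds (0.15). On recovered reads, SESN2 in the interaction with MI-1061 was 0.12 by edgeR and 0.12 by DESeq2, and FDXR in that with MD-224 was 0.057 by both. The cause was not tested.

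Leaving out libraries, NCS and MD-224 against MD-224 had 2 to 7 genes called higher, the interaction with MI-1061 1 to 3 lower, the interaction with MD-224 0 to 1 higher and 0 to 3 lower, and the gap 1 to 2 lower. Log2 values that changed sign ran from -0.67 to 0.23 (SESN2, interaction with MI-1061), from -0.27 to 0.64 (SESN2), -0.28 to 0.29 (FDXR) and -0.28 to 0.47 (TP53I3) in the interaction with MD-224, and from -0.12 to 0.12 (TIGAR), -0.49 to 0.077 (FDXR) and -0.084 to 0.56 (ACER2) in the gap. The SESN1 to SESN2 ratio ran from -0.049 to 0.28 with NCS, 0.29 to 0.71 with MI-1061 and 0.59 to 0.995 with MD-224, and TP53INP1 to SPATA18 from -0.19 to 0.033 with NCS and -0.15 to 0.095 with MI-1061. Leaving a replicate number out of every group leaves 36 arrangements for a compound, whose smallest p is 0.0556, so no ratio could pass there. Leaving out DMSO replicate 2 alone from the ratios was chosen after seeing the data; the NCS effect on SESN1 to SESN2 was then -0.034 and the MI-1061 effect 0.29.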

Other observations

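Of 33 antioxidant genes and targets of the factor NRF2, 8 were listed, and 5 rose with MI-1061, 5 with MD-224 and 5 with NCS over DMSO, where 67.6%, 39.9% and 54% of all tested genes were called higher. Under TMM scaling 3, 1 and 0 were higher, and 3 were lower with MI-1061. The aldo-keto reductase AKR1B10 rose 22.1-fold with MI-1061 and 3.10-fold with MD-224, and SRXN1, which repairs oxidized peroxiredoxins, rose 4.52-fold with MI-1061 and was at 1.07-fold with MD-224 (adjusted p = 0.681). The secreted peroxidase GPX3 was at 1.02-fold and the reductase AKR1C1 at 0.751-fold with MI-1061 (adjusted p = 0.929 and 0.215), and both were lower under TMM scaling (log2 -0.97 and -1.40).

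Of 21 genes of the integrated stress response, 6 were listed. MI-1061 raised 4 of these over DMSO, where 67.6% of all tested genes were called higher, ATF3 (6.10-fold), NUPR1 (4.77-fold), PPP1R15A (2.78-fold) and CEBPB (2.08-fold), of which ATF3 and NUPR1 were also called under TMM scaling. PSAT1, an enzyme of serine synthesis, fell to 0.457 times the DMSO level with NCS and 0.537 times with MD-224 (adjusted p = 6.77e-05 and 0.000693), and also under TMM scaling (log2 -1.74 and -1.39). CHAC1 was at 1.51-fold with MI-1061, 1.47-fold with MD-224 and 1.55-fold with NCS (adjusted p = 0.284, 0.382 and 0.279).

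Of 36 p53 targets of other functions, 31 were listed, and MI-1061 raised 29 over DMSO, MD-224 23 and NCS 20, where 67.6%, 39.9% and 54% of all tested genes were called higher. Under TMM scaling 27, 18 and 4 were higher and 3, 3 and 10 lower. The death receptor TNFRSF10A rose 131-fold with MI-1061 and was at 2.51-fold with MD-224 (adjusted p = 0.0798), and GDF15 rose 40.2-fold and 5.32-fold. The apoptosis gene PMAIP1 was at 1.13-fold and TP53I11 at 1.18-fold with MI-1061 (adjusted p = 0.48 and 0.393), and both were lower under TMM scaling (log2 -0.82 and -0.76).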
